A study of Arabidopsis thaliana with 6 samples.

Results

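Transcripts of 5 membrane-tethered NAC transcription factors of Arabidopsis thaliana, ANAC013 (AT1G32870), ANAC016 (AT1G34180), ANAC017 (AT1G34190), ANAC053 (AT3G10500) and ANAC078 (AT5G04410), were examined in root tips. The members were named by locus and not by their level. They were the rows of the deposited expression table whose identifier, without its isoform suffix, was one of these loci, and they made up 11 of 48359 transcripts and 5 of 27655 loci. The genotypes compared on salt were sos2-2 and wild type, with 3 samples each, from seedlings that were 6 days old when placed for 12 hours in liquid half-strength MS medium with 100 mM NaCl. SOS2 is a protein kinase that, with a calcium sensor, activates the exchanger that carries sodium out of root cells. All 6 samples had been on salt, so no value below is a response to salt itself. The text of the series names gl1 beside sos2-2 where the sample labels say wild type, and GL1, the trichome regulator that such a line lacks, was listed at 0 in all 6 samples, so the level does not tell a gl1 parent from wild type in this tissue.

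NAC proteins bind DNA through a conserved N-terminal domain. In the tethered members a hydrophobic tail holds the protein in a membrane, chiefly that of the endoplasmic reticulum, until a protease frees the DNA-binding part to enter the nucleus. ANAC017 and ANAC013 carry signals from impaired mitochondria to the nucleus and bind the mitochondrial dysfunction motif of genes such as the alternative oxidase AOX1A. ANAC016 is the closest relative of ANAC017 and is known from leaf senescence and drought. ANAC053 and ANAC078, also a related pair, bind a proteasome-related element in promoters of proteasome subunit genes when the proteasome is impaired; ANAC053 is also known from oxidant production in drought and ANAC078 from flavonoid synthesis in strong light.

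The members' promoters were searched for letters of both elements, since these factors bind them. The stretches shown lie just upstream of the tandem pair ANAC016 and ANAC017, the members that held a match, on the plus strand of TAIR10.1 (RefSeq) and 5′ to 3′. The first is the whole gap of 117 bases between the annotated end of ANAC016 and the start of ANAC017, chr1:12451288-12451404, and the second the 117 bases before ANAC016, chr1:12448426-12448542. Capitals mark every match to either element on either strand.
ANAC017: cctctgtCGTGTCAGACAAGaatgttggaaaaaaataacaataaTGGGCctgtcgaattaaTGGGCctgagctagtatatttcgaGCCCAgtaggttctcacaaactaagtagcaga
ANAC016: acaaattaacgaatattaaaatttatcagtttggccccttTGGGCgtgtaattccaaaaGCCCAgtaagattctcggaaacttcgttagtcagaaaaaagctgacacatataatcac

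The letters searched were CTTGNNNNNCANG for the mitochondrial dysfunction motif and TGGGC for the proteasome element, on both strands, from 250 bases before to 50 bases after each gene start. ANAC017 held 1 match to the mitochondrial letters, on the minus strand with its first printed base 110 bases before the gene start, and 3 matches to TGGGC, at 73, 56 and 32 bases. ANAC016 held 2 matches to TGGGC, at 77 and 58 bases, and none to the mitochondrial letters. No match overlapped another. ANAC013, ANAC053 and ANAC078 held neither set of letters in this window or in the 1000 bases before the gene start, a longer window added after the first was seen. The gap to the gene before is only 14 bases for ANAC053, 117 bases for ANAC017 and 325 bases for ANAC078. Both windows of ANAC053 and of ANAC017, and the longer window of ANAC078, thus run into the gene before. All matches of ANAC017 lie within its gap. Of 27443 gene windows in the reference, 2.14% held the mitochondrial letters and 26.0% held TGGGC, and over 1000 bases the shares were 7.6% and 49.6%. A match is a description of the sequence, not a bound site.

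The genes all lie on the plus strand, ANAC013 at chr1:11911631-11913947, ANAC016 at chr1:12448543-12451287, ANAC017 at chr1:12451405-12454542, ANAC053 at chr3:3271217-3274176 and ANAC078 at chr5:1243684-1246684. Between the annotated proteins, ANAC016 and ANAC017 were identical at 76.3% of aligned residues and ANAC053 and ANAC078 at 72.9%. ANAC013 was nearer to the first pair, with 49.4% identity to ANAC016 and 45.9% to ANAC017, than to the second, with 38.3% to ANAC053 and 39.6% to ANAC078. The first 160 residues of each protein, which hold most of the NAC domain, were also aligned on their own, and the 2 pairs reached 88.1% and 91.2%. The RNA sequences remained distinct: ANAC016 and ANAC017 shared 15 stretches of 31 bases, 0.64% and 0.58% of those in each, and the other 3 genes shared none with any other locus. These counts compare transcripts on their own strand and leave out overlaps with genes on the opposite strand, which are given with the neighbouring genes.

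All 5 genes were higher in sos2-2, in 2 size classes. ANAC013, ANAC016 and ANAC053 rose 73.7-fold, 12.3-fold and 8.28-fold by the ratio of mean TPM (transcript abundance per length, scaled to the same total in each sample), while ANAC078 rose 1.48-fold and ANAC017 1.27-fold. For each of the 5, every sos2-2 sample stood above every wild-type sample. Of all 19527 genes tested, 31.3% were called higher in sos2-2 and 34.1% lower at an adjusted p under 0.05 with limma, and in 35% the sos2-2 samples all stood above the wild-type samples, so a rise as such was common here. In whole root tips, fewer cells of a type and less RNA per cell cannot be told apart. No label tells if replicates were grown apart, and the p-values measure only how far these samples spread, a spread that could be technical.

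ANAC013, a factor of the mitochondrial response, had 457, 319 and 446 TPM in the 3 sos2-2 samples, against 4.29, 6.70 and 5.60 TPM in the 3 wild-type samples. The lowest sos2-2 sample was 47.6 times the highest wild-type sample. The means were 407 ± 76.6 TPM in sos2-2 and 5.53 ± 1.21 TPM in wild type (SD, n = 3 each), and the log2 difference, on the scale log2(TPM + 1) used for all tests, was 5.97 (SE 0.19, limma adjusted p = 2.98e-06). Only 43 of the genes tested, 0.22%, rose more. By level, 1.88% of tested genes had a higher mean in sos2-2, against 76.2% in wild type, so the gene stood among the abundant transcripts in one genotype and well below the middle in the other. Among 80 tested genes with NAC in their product name in the reference, the rise of ANAC013 ranked 2nd on the log2(TPM + 1) scale, after NAC044. That set leaves out the tethered NAC gene ANAC091. The order differs by ratio of means, where NAC036, for example, stood at 88.7. Within the set the level of ANAC013 ranked 4th in sos2-2 and 46th in wild type.

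ANAC016, known from senescence, was the least abundant member in every sample. It had 22.1, 22.4 and 28.8 TPM in sos2-2 and 2.17, 2.46 and 1.31 TPM in wild type. The sos2-2 samples lay close together and none came near the wild-type range. The means were 24.4 ± 3.82 TPM in sos2-2 and 1.98 ± 0.5998 TPM in wild type (SD, n = 3 each), with a log2 difference of 3.10 (SE 0.20, limma adjusted p = 2.25e-05). This value depends on the pseudocount more than that of the other members, since the wild-type level is near 1 TPM, and ran between 2.07 and 3.66 over the alternatives. Of the genes tested, 391 (2.0%) rose more.

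ANAC053, of the proteasome pair, had 235, 152 and 177 TPM in sos2-2 and 19.7, 23.9 and 24.4 TPM in wild type. The sos2-2 samples differed more among themselves than the wild-type samples did, and replicate 2 was the lowest of them, as it was for ANAC013. The means were 188 ± 42.3 TPM in sos2-2 and 22.7 ± 2.56 TPM in wild type (SD, n = 3 each), and the log2 difference was 2.98 (SE 0.18, limma adjusted p = 1.82e-05). The gene rose by nearly as much as ANAC016 on the log2 scale from a higher level, and 445 genes (2.28%) rose more.

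ANAC078, the partner of ANAC053, had 76.1, 67.3 and 74.5 TPM in sos2-2 and 47.0, 48.0 and 52.5 TPM in wild type. It was the most abundant member in wild type, and its groups were separate with a narrow margin, the lowest sos2-2 sample being 1.28 times the highest wild-type sample. The means were 72.7 ± 4.67 TPM in sos2-2 and 49.2 ± 2.91 TPM in wild type (SD, n = 3 each), with a log2 difference of 0.55 (SE 0.11, limma adjusted p = 0.00308). A rise of this size was ordinary among the genes tested, of which 5439 (27.9%) rose more.

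ANAC017, the upstream factor of the mitochondrial response, moved least. It had 44.5, 41.4 and 44.3 TPM in sos2-2 and 31.1, 37.1 and 34.2 TPM in wild type. The lowest sos2-2 sample was 1.12 times the highest wild-type sample. The means were 43.4 ± 1.76 TPM in sos2-2 and 34.1 ± 3.003 TPM in wild type (SD, n = 3 each), with a log2 difference of 0.34 (SE 0.11, limma adjusted p = 0.0273), and 6762 genes (34.6%) rose more. The call was lost without sos2-2 replicate 3 (adjusted p = 0.0803), wild-type replicate 1 (0.1) or wild-type replicate 3 (0.0908), and under quantile normalization (log2 difference 0.23, adjusted p = 0.0931).

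**Figure D1:**
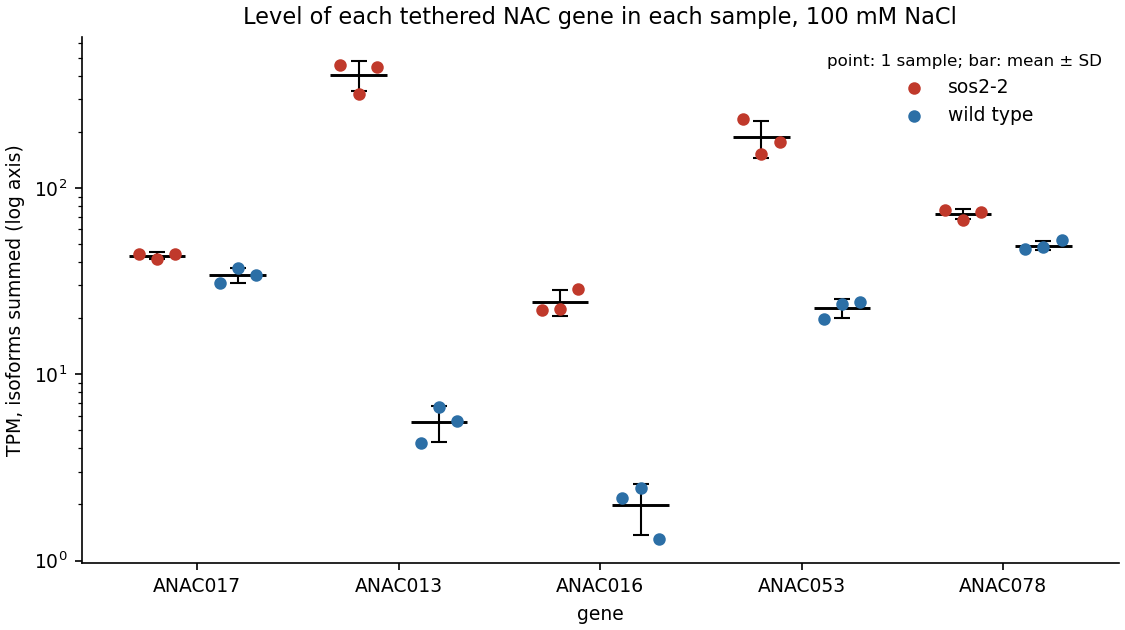
TPM of each gene, isoforms summed, in each of the 6 samples (points, log axis), with the mean and SD of 3 samples per genotype as bars. ANAC013, ANAC016 and ANAC053 are separated by wide gaps, and ANAC017 by the narrowest, with its lowest sos2-2 sample at 41.4 TPM and its highest wild-type sample at 37.1 TPM.

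**Figure D2:**
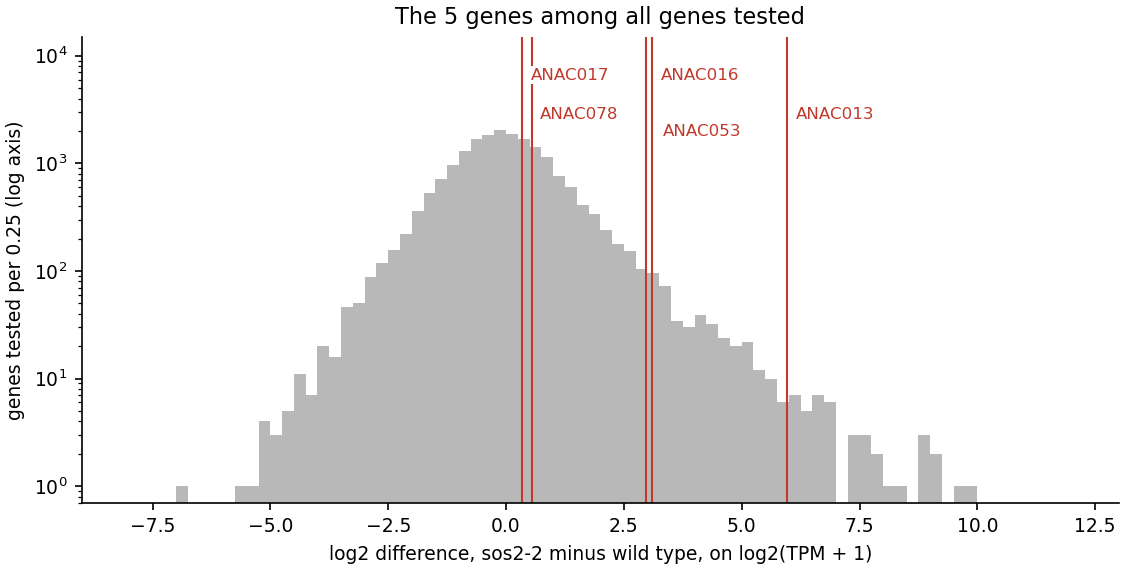
Distribution of the log2 difference, sos2-2 minus wild type, over the 19527 genes tested (grey, number of genes on a log axis), with a line for each of the 5 genes. ANAC017 (0.34) and ANAC078 (0.55) lie within the bulk, ANAC053 (2.98) and ANAC016 (3.10) in the upper tail, and ANAC013 (5.97) near its end.

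TPM is scaled for length, so the members can also be set against each other within a sample, and their order changed with genotype. In each of the 3 sos2-2 samples the order by TPM was ANAC013, ANAC053, ANAC078, ANAC017 and ANAC016. In each of the 3 wild-type samples it was ANAC078, ANAC017, ANAC053, ANAC013 and ANAC016. The ranges of neighbours in the order did not overlap within either genotype. The 5 genes summed to 834.5, 602.5 and 769.8 TPM in sos2-2 and to 104.3, 118.1 and 118.0 TPM in wild type. ANAC013 held 55.2% ± 2.48 of that sum in sos2-2 and 4.84% ± 0.785 in wild type, and ANAC053 held 25.4% ± 2.60 in sos2-2 and 19.9% ± 0.929 in wild type (SD, n = 3 each). ANAC078 held 10.0% ± 1.08 in sos2-2 and 43.4% ± 2.39 in wild type, and ANAC017 held 5.99% ± 0.795 in sos2-2 and 30.0% ± 1.27 in wild type (SD, n = 3 each). The pair with small rises thus made up most of the summed level in wild type and a small share in sos2-2, and ANAC016 stayed at a few percent, 3.37% ± 0.624 in sos2-2 and 1.76% ± 0.560 in wild type.

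**Figure D3:**
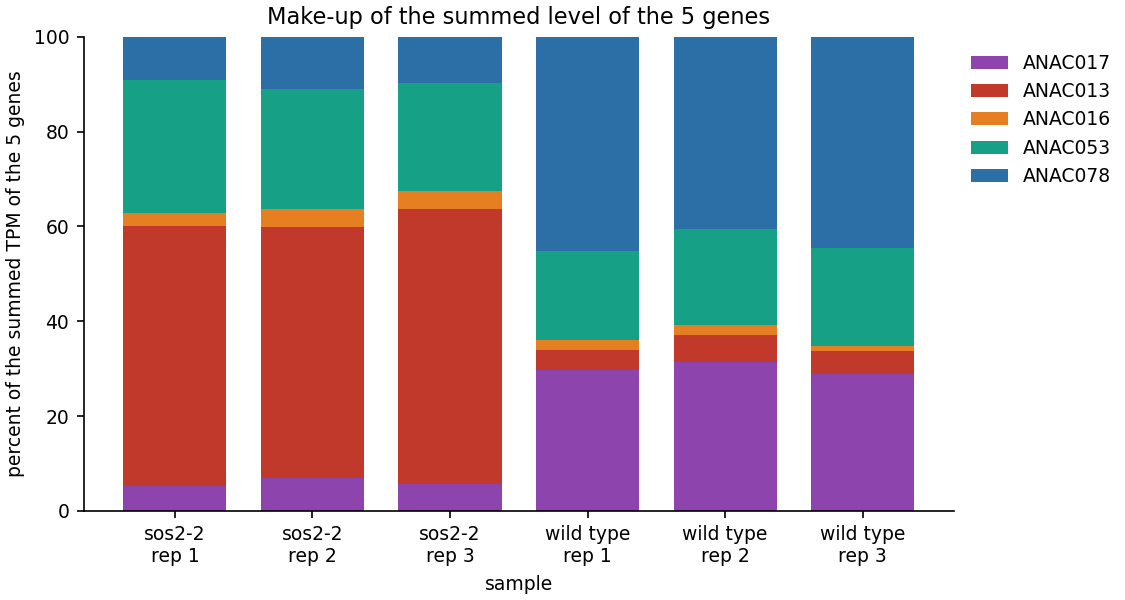
Share of each gene in the summed TPM of the 5 genes, as a percent, in each sample (stacked bars, sos2-2 on the left). ANAC013 takes 53.0% to 57.9% in the sos2-2 samples and 4.11% to 5.67% in the wild-type samples.

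Whether related members moved by different amounts was tested on their ratio within each sample. ANAC013 over ANAC017 was 10.3, 7.71 and 10.0 in sos2-2 and 0.138, 0.181 and 0.164 in wild type, a log2 difference of 5.86. ANAC016 over its tandem neighbour ANAC017 was 0.497, 0.540 and 0.650 in sos2-2 and 0.0700, 0.0663 and 0.0382 in wild type, a log2 difference of 3.31. ANAC053 over ANAC078 was 3.08, 2.26 and 2.37 in sos2-2 and 0.420, 0.497 and 0.465 in wild type, a log2 difference of 2.47. In each of the 3 ratios the groups did not overlap, and the two-sided exact permutation p was 0.1 before and after Benjamini-Hochberg adjustment over the 3 ratios, which is the smallest that 3 against 3 samples allow. ANAC013 and ANAC053 were the more abundant gene of their ratio in every sos2-2 sample and the less abundant in every wild-type sample, while ANAC016 stayed below ANAC017 throughout.

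The 5 loci have 11 annotated isoforms, of which 8 passed the filter of a mean of 1 TPM, and all 8 were called higher in sos2-2, against 25.1% of the 27461 transcripts tested. As the quantification split its reads, ANAC013 was carried mostly by 2 isoforms with different ends. AT1G32870.1, whose protein has 528 residues, had 303.0, 222.9 and 270.2 TPM in sos2-2 and 3.56, 4.47 and 3.98 TPM in wild type (log2 difference 5.73, SE 0.15, limma adjusted p = 5.6e-06). AT1G32870.3 starts 37 bases upstream of it, is annotated with 564 residues and has no annotated 3′ untranslated part; it had 149, 90.7 and 171 TPM in sos2-2 and 0.725, 2.00 and 1.62 TPM in wild type (log2 difference 5.80, SE 0.29, limma adjusted p = 2.33e-05). The exon bases found in no other isoform of the gene number 0 in AT1G32870.1 and AT1G32870.2 and 37 in AT1G32870.3. The split among these isoforms is therefore an estimate from mostly shared sequence. As estimated, AT1G32870.1 and AT1G32870.3 rose together. AT1G32870.3 made up 32.5%, 28.4% and 38.3% of the gene in sos2-2 and 16.9%, 29.8% and 28.9% in wild type, ranges that overlapped (two-sided exact permutation p = 0.3). The minor isoform AT1G32870.2 had 5.42, 5.42 and 4.65 TPM in sos2-2 and was listed at 0, 0.236 and 0 TPM in wild type (log2 difference 2.52, SE 0.24, limma adjusted p = 0.000209).

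ANAC016 was read almost wholly as AT1G34180.1, at 98.7%, 100.0% and 98.8% of the gene in sos2-2 and 100.0%, 100.0% and 95.1% in wild type. Its log2 difference was 3.11 (SE 0.22, limma adjusted p = 7.08e-05). AT1G34180.2 and AT1G34180.3 were listed at 0 in all 6 samples. Neither has an exon base that no other isoform of the gene holds, so this too is an estimate. AT1G34180.4 was listed at 0.285, 0 and 0.343 TPM in sos2-2 and at 0, 0 and 0.0638 TPM in wild type, and was not tested. Whether an isoform keeps the membrane tail was read from its annotated protein, as the highest mean hydropathy (Kyte-Doolittle scale) over 19 residues. In every isoform except AT1G34180.3 and AT1G34180.4 the highest window lay 6 to 13 residues from the C-terminus, with values of 2.14 to 2.74, above the usual cutoff of 1.6 for a membrane-spanning stretch. In those 2 isoforms, with 447 and 459 residues, no window passed the cutoff, the last 100 residues reaching 0.48. Nearly all TPM of the 5 genes, as split among isoforms by the quantification, thus lay on isoforms annotated with the tail, in sos2-2 and in wild type.

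ANAC053 was mostly AT3G10500.1, which had 232, 148 and 174 TPM in sos2-2 and 19.1, 22.9 and 23.6 TPM in wild type (log2 difference 3.0, SE 0.18, limma adjusted p = 4.57e-05). AT3G10500.2 keeps the tail but its annotated protein of 415 residues lacks the N-terminal part of the 549 residues of AT3G10500.1. It had 2.52, 4.00 and 2.58 TPM in sos2-2 and 0.652, 0.945 and 0.780 TPM in wild type (log2 difference 1.15, SE 0.26, limma adjusted p = 0.00802). Its share of the gene was 1.07%, 2.63% and 1.46% in sos2-2 and 3.30%, 3.96% and 3.19% in wild type, so its share was lower in every sos2-2 sample while its level was higher (difference -1.76 percentage points, two-sided exact permutation p = 0.1, adjusted 0.35 over 7 isoform shares). ANAC017 and ANAC078 have 1 annotated isoform each, with the values of the gene.

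**Figure D4:**
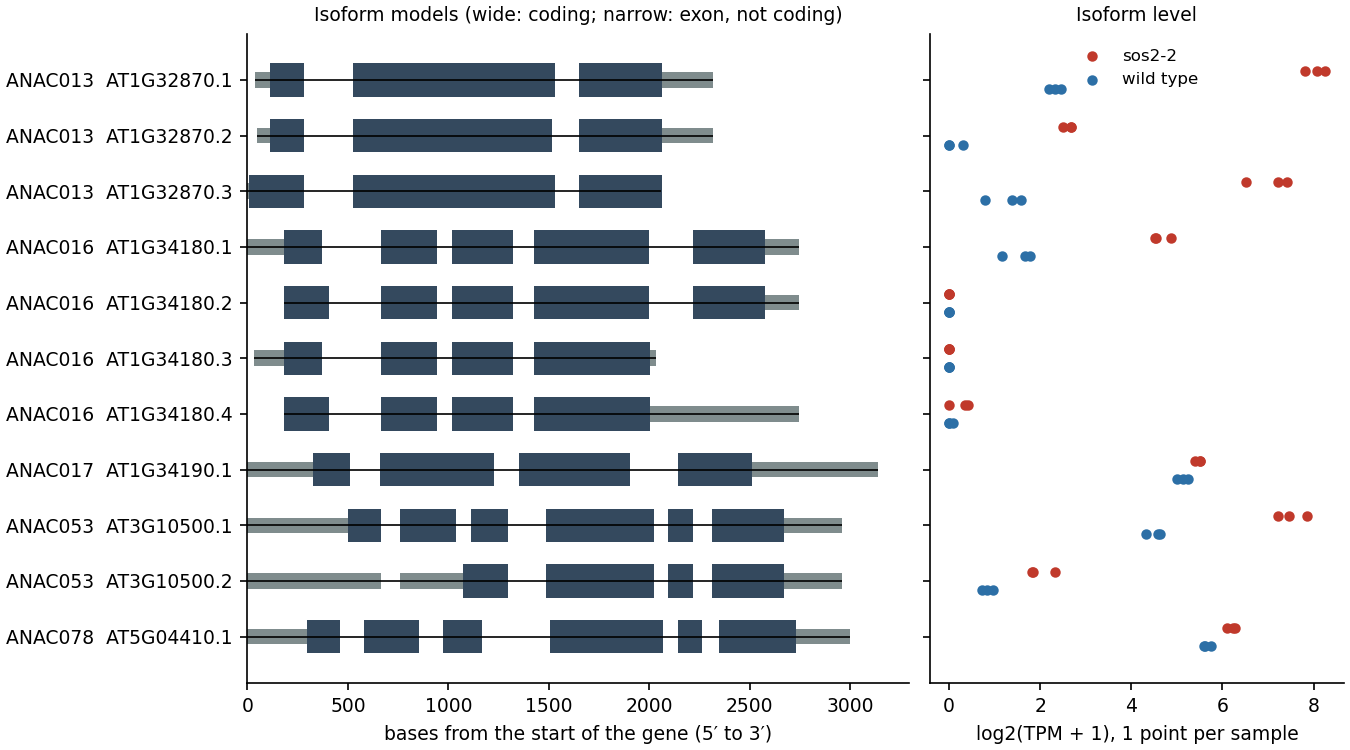
Left, annotated exons of each isoform by distance from the gene start in bases, coding parts wide and other parts narrow. Right, log2(TPM + 1) of each isoform in each sample, with sos2-2 above wild type; the 2 main ANAC013 isoforms, AT1G34180.1 and AT3G10500.1 show wide gaps, and AT1G34180.2 and AT1G34180.3 are listed at 0 in all 6 samples.

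Genes beside the members were checked because the strand setting of the quantification was not stated. AT1G32880 lies on the minus strand after ANAC013 and overlaps its end by 20 bases; it had 158, 46.4 and 78.3 TPM in sos2-2 and 0.423, 0.653 and 0.494 TPM in wild type (log2 difference 5.79, SE 0.39, limma adjusted p = 3.15e-05). This convergent neighbour of ANAC013 thus rose by a similar amount. Without the strand setting, sequence that lies wholly within such an overlap cannot be assigned to one strand. The overlap of ANAC013 is only 20 bases, and its isoform AT1G32870.3, as annotated, ends before it. ANAC078 overlaps AT5G04420 on the minus strand by 81 bases, and that gene fell, with 21.0 ± 2.15 TPM in sos2-2 and 37.6 ± 3.06 TPM in wild type (SD, n = 3 each), opposite to ANAC078. ANAC078 also overlaps the antisense RNA gene AT5G00965 by 375 bases, which has no row in the table. NAC052, which ends 14 bases before ANAC053 on the same strand, had 52.1 ± 4.82 TPM in sos2-2 and 25.6 ± 1.66 TPM in wild type (log2 difference 1.00), a smaller rise than that of ANAC053.

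The tested genes with a symbol of their own that followed each member most closely were found by the root mean square distance between log2(TPM + 1) values over the 6 samples, each gene centred on its mean, among 8382 candidates. Nearest to ANAC013 were EXO (distance 0.223), ACS7 (0.225), an enzyme of ethylene synthesis, and AT4G16820 (0.234). Nearest to ANAC016 were ABCB21 (0.139), an auxin transporter, DLAH (0.159), a lipase, and OXS3 (0.161), an oxidative stress gene. Nearest to ANAC053 were the transcription factor genes MYB84 (0.1), SCL14 (0.108) and EIL2 (0.117). Nearest to ANAC078 were MYB3R-3 (0.0391), a cell cycle regulator, IAA14 (0.0393), an auxin response repressor, and the kinase gene VIK (0.0414), and nearest to ANAC017 were XBAT35 (0.0288), TTG1 (0.0329) and NF-YC11 (0.0444). None of the 5 members was the nearest gene of another. Between ANAC016 and ANAC053 the distance was 0.339, with 64 candidates nearer to ANAC016, and between ANAC017 and ANAC078 it was 0.132, with 341 nearer to ANAC017. Only 6 samples of 2 genotypes entered these distances.

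Among genes known to release or restrain the tethered factors, RCD1, a nuclear protein that binds ANAC013 and ANAC017 and restrains them, had 499, 451 and 565 TPM in sos2-2 and 100.5, 111.9 and 104.7 TPM in wild type (log2 difference 2.24, SE 0.12, limma adjusted p = 1.32e-05). RCD1 was thus more abundant than ANAC013 in every sample of both genotypes. The rhomboid protease gene RBL6 was higher, with 33.4 ± 7.93 TPM in sos2-2 and 19.1 ± 1.97 TPM in wild type, and RBL1 was lower, with 16.2 ± 0.842 TPM in sos2-2 and 22.7 ± 0.859 TPM in wild type (SD, n = 3 each). RBL2, a protease that can release ANAC013, had 19.9 ± 0.812 TPM in sos2-2 and 16.9 ± 1.70 TPM in wild type (SD, n = 3 each) and was not called (log2 difference 0.23, SE 0.12, limma adjusted p = 0.125). Of 7 such genes 2 were called higher, 2 lower and 3 neither way (median log2 difference 0.23), shares of 28.6% higher and 28.6% lower that lie near those over all genes, 31.3% and 34.1%. The count of lower genes was 1 without sos2-2 replicate 1, sos2-2 replicate 3 or any one of the wild-type replicates.

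Most of the listed known targets of ANAC013 and ANAC017 rose. The list, like the others here, was chosen with earlier results of these data known. Of 19 genes of mitochondrial dysfunction 18 (94.7%, beside 31.3% over all genes tested) were called higher and 0 lower, with a median log2 difference of 5.91, beside -0.05 over all genes tested. Among them the transporter gene AT2G04050 had 1834 ± 551 TPM in sos2-2 and 1.25 ± 0.964 TPM in wild type, and NDB4, of the alternative NAD(P)H dehydrogenases, had 569.7 ± 314.5 TPM in sos2-2 and 0.491 ± 0.371 TPM in wild type (SD, n = 3 each). The oxidoreductase gene AT5G43450 had 1862 ± 626 TPM in sos2-2 and 6.82 ± 3.09 TPM in wild type. Of 5 tested regulators of the same response 4 (80%, beside 31.3%) were called higher, led by the transcription factors WRKY40 (log2 difference 2.99), WRKY15 (1.95) and WRKY63 (1.19).

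Most subunit genes of the kind that ANAC053 and ANAC078 are known to activate fell. Of 23 genes of the proteasome core 0 were called higher and 21 lower (median log2 difference -0.80), and of 30 genes of its cap 2 were called higher and 18 lower (median -0.53). The lower share was thus 91.3% in the core and 60% in the cap, beside 34.1% over all genes tested. PBF1 of the core had 105, 101 and 85.7 TPM in sos2-2 and 246, 222 and 238 TPM in wild type, and PAG1 98.3, 112 and 90.4 TPM in sos2-2 and 239.0, 219.5 and 237.6 TPM in wild type. PAF2 of the core (log2 difference -1.32) and RPT2A of the cap (-1.11) fell as well. The 2 cap genes that rose were the second copies RPN12B, with 7.67 ± 1.26 TPM in sos2-2 and 0.862 ± 0.528 TPM in wild type, and RPT1B, with 48.9 ± 8.06 TPM in sos2-2 and 20.9 ± 0.782 TPM in wild type (SD, n = 3 each). Related subunit copies can share reads, so single copies are uncertain. Of 5 genes of assembly and partner proteins, the activator gene PA200 (log2 difference 1.55) and CDC48B (1.5) rose, and UMP1A, which helps assemble the core, fell (-1.58) with 2 others. The shares were 40% higher and 60% lower, beside 31.3% and 34.1% over all genes tested.

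The other known outputs of the members, in short lists, were lower or mixed. Over all genes tested, 31.3% were called higher and 34.1% lower. Of 4 genes linked to ANAC016, listed under senescence, 3 (75%) were called lower. They were NYC1 (log2 difference -1.46) and SGR1 (-0.79), both of chlorophyll breakdown, and ABF2 (-0.45). The list does not state whether ANAC016 activates or represses each gene. The levels of NYC1 and SGR1 were low, with group means from 1.79 to 6.42 TPM. The fourth, the NAC gene NAP, was called higher (1.20), but its groups overlapped, and the call was lost without sos2-2 replicate 2 or 3 or without wild-type replicate 1 or 3. Of 3 oxidase genes linked to ANAC053, RBOHA rose (1.81), RBOHE fell (-0.41) and RBOHC was not called (-0.25, limma adjusted p = 0.117). These shares of 33.3% higher and 33.3% lower lie near those over all genes. Of 6 flavonoid genes linked to ANAC078, 3 were tested and all 3 fell, among them CHS, the first enzyme of the pathway, with 54.5, 118 and 72.7 TPM in sos2-2 and 1459, 389 and 854 TPM in wild type. FLS1 (-3.36) and TT7 (-2.86) fell by similar amounts.

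Among 10 other tethered NAC genes 8 were tested. Of these, 6 (75%, beside 31.3% over all genes tested) were called higher, 1 (12.5%, beside 34.1%) lower and 1 neither way. The median log2 difference was 1.11, beside -0.05 over all genes tested. ANAC062, known from the unfolded protein response, had 192, 138 and 191 TPM in sos2-2 and 43.7, 47.9 and 47.6 TPM in wild type, and ANAC069 had 60.0, 30.5 and 40.6 TPM in sos2-2 and 7.19, 10.8 and 9.66 TPM in wild type. ANAC089, which fell, had 1.45, 3.65 and 1.82 TPM in sos2-2 and 7.21, 12.2 and 10.7 TPM in wild type. The log2 differences of ANAC013, ANAC016 and ANAC053 exceeded that of every one of the 8, the highest being 2.09 for ANAC069, and those of ANAC017 and ANAC078 lay below those of the 6 that rose.

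**Figure D5:**
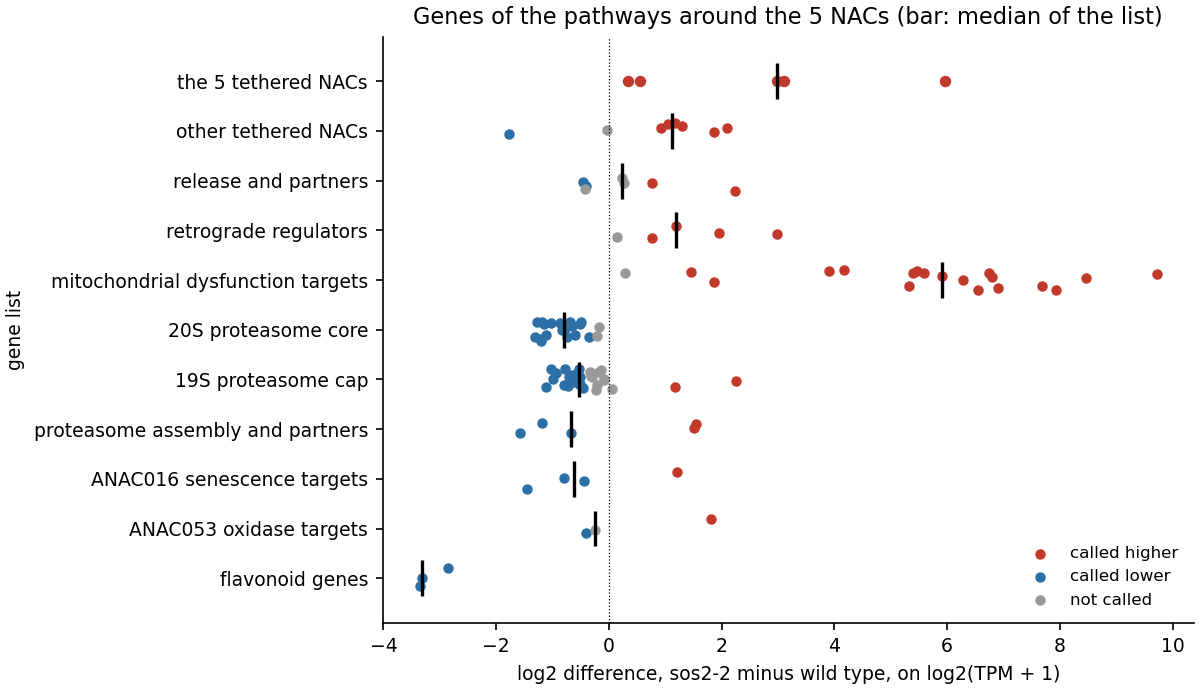
Log2 difference, sos2-2 minus wild type, of each tested gene (points, coloured by call) in the 5 tethered NACs and in 10 lists of related genes, with the median of each list as a bar. The mitochondrial dysfunction targets lie far to the right (median 5.91), and the proteasome core (median -0.80) and cap (median -0.53) mostly to the left of 0.

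Markers of root cell types moved between the genotypes as well, and their part in the members' values was not tested. The 4 root hair markers summed to 307 to 431 TPM over the sos2-2 samples and to 1500 to 1950 TPM over the wild-type samples, and the 5 endodermis markers to 28.7 to 203 TPM in sos2-2 and 606 to 803 TPM in wild type. The 5 meristem markers summed to 61.9 to 107 TPM in sos2-2 and 61.0 to 74.4 TPM in wild type, the 3 root cap markers to 42.0 to 43.9 TPM in sos2-2 and 29.2 to 33.1 TPM in wild type, the 7 xylem markers to 143 to 179 TPM in sos2-2 and 196 to 238 TPM in wild type and the 4 phloem markers to 82.0 to 92.2 TPM in sos2-2 and 26.4 to 42.2 TPM in wild type. The 4 shoot markers summed to 9.8 to 21.0 TPM in sos2-2 and 26.8 to 35.0 TPM in wild type. Single markers did not all follow their sum. Of the 7 xylem markers 5 were called lower and 1 higher. Of the 3 root cap markers 2 were called higher and 1 neither way, and of the 4 phloem markers 2 higher and 2 neither way. All root hair and endodermis markers were called lower, and no meristem marker was called. Over all genes tested, 31.3% were called higher and 34.1% lower. No marker was at 0 in all samples, and those of meristem and root cap, the defining cells of a root tip, were present in both genotypes. SOS2 itself had 15.5 ± 6.02 TPM in sos2-2 and 5.41 ± 0.415 TPM in wild type (SD, n = 3 each), and the labels do not say where its lesion lies, so the level checks nothing. Across the genes tested, on log2(TPM + 1), sos2-2 replicate 2 was the sos2-2 sample most like wild type (Pearson's r 0.814 to 0.824, against 0.726 to 0.780 for the other 2). Without that sample the ratio of means was 81.7 for ANAC013, 12.9 for ANAC016, 9.07 for ANAC053, 1.53 for ANAC078 and 1.30 for ANAC017.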

How the data were processed

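Per the labels' protocols, TRIzol RNA went into Illumina RNA-seq libraries. The deposited table holds TPM for 48359 transcripts, a unit judged from its values, since every sample totals 1000000. The submitters' processing notes list TAIR10, sleuth 0.30.0 and kallisto 0.46.2 without saying what each was used for. Sources used here do not state the annotation release, filters or strand setting. Depth is unknown from TPM and no counting interval is given, and a share of a fixed total shifts when abundant transcripts change.

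Isoforms were summed to 27655 loci, of which 27445 (99.24%) matched RefSeq's TAIR10.1, the source of names, coordinates, sequences and protein features (Biopython 1.88, Python 3.11.15). Genes and transcripts with a mean of at least 1 TPM (19527 and 27461) were fitted on log2(TPM + 1) with limma 3.58.1 in R 4.3.3, genotype only, with trended, robust variance moderation, and adjusted by Benjamini-Hochberg over all tested. Called means an adjusted p under 0.05. Differences are sos2-2 minus wild type and understate low genes. Isoform shares and ratios were tested by two-sided exact permutation (SciPy 1.17.1). The fit was tested on simulated data.

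The members, lists and tests were chosen with earlier results of these data known. Named genes were the members and their isoforms, up to 3 called genes of each list with the largest difference (with the most abundant uncalled one where fewer were called) and the 3 nearest patterns per member. RBL2, ABF2, NAC036, NAC044, ANAC091 and the neighbouring genes fall outside that rule and were chosen after their values were seen. For 22 listed entries the reference gives another name than the one used here. Alternatives changed the pseudocount, filter, scaling, moderation, weights, samples, replicate block and use of isoforms.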

Additional observations from a re-analysis of the deposited data

How the results depend on the processing

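Over 47 results and 510 alternatives, 479 kept direction and side of the threshold (or, for counts, stayed within 1.5 times), 13 lost their call, 5 changed direction and 13 counts moved. The log2 differences of ANAC013 (5.28 to 6.18), ANAC016 (2.07 to 3.66), ANAC053 (2.78 to 3.12) and ANAC078 (0.44 to 0.61) stayed called under every alternative run. ANAC017 ran from 0.23 to 0.40 and was the gene that did not: beside quantile normalization (0.23, adjusted p = 0.0931), leaving out single samples gave losses at 0.28 to 0.35 (adjusted p up to 0.1). Its transcript AT1G34190.1 lost the call with no filter (0.34, adjusted p = 0.0563), under quantile normalization (0.21, adjusted p = 0.149), under plain moderation (0.34, adjusted p = 0.0818) and without single samples (0.28 to 0.35). The cause was not tested. With the replicate block, ANAC017 (0.34, adjusted p = 0.0621) and AT1G34190.1 (0.34, adjusted p = 0.0886) lost their calls and no other member did; samples of one number correlated at 0.177, 0.0505 and 0.0576 in their deviations, so the numbers were not taken as pairs, and a call lost under the block is not a weaker effect. Under the block the exact p of each ratio was 0.25, the smallest that 3 pairs allow.

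Without single samples, the share difference of AT1G32870.2 (0.14 percentage points with all samples) ran from -0.45 to 1.31, that of AT1G34180.1 from -0.83 to 1.62 and that of AT1G34180.4 from -1.62 to 0.83, so these shares have no direction. With a filter at a mean of 5 TPM, fewer genes were tested, and the lower genes of release and partners were 1, the higher genes of the proteasome cap 1 and the lower senescence genes 1; scaling by median-of-ratios factors also left 1 lower gene of release and partners. Without single samples that count ran from 1 to 3 and the higher senescence genes from 0 to 1. One alternative was chosen after seeing the data: the most abundant transcript, AT2G01021.1, which held between 0.191% and 5.55% of a sample, was left out and the rest rescaled, and it changed no member's call. No scaling moved the median of all genes by over 0.1.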

Other observations

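Of 110 other genes with NAC in their product name in the reference, 75 were tested. Of these, 46 (61.3%, beside 31.3% over all genes tested) were called higher in sos2-2, 8 (10.7%, beside 34.1%) lower and 21 neither way. The median log2 difference was 0.86, beside -0.05 over all genes tested. By rise on the log2(TPM + 1) scale among the 80 tested genes of this set, members included, ANAC016 ranked 9th, ANAC053 11th, ANAC078 50th and ANAC017 56th. The tethered NAC gene ANAC091 is not among the 80, so these ranks hold within the set only. ANAC091 had a mean of 74.7 TPM in sos2-2 and 35.5 TPM in wild type, above ANAC078 in sos2-2 and above ANAC017 in each genotype. By level, ANAC053 ranked 8th in sos2-2 and 25th in wild type, ANAC016 38th in sos2-2 and 63rd in wild type, ANAC078 20th in sos2-2 and 7th in wild type, and ANAC017 29th in sos2-2 and 15th in wild type. ANAC078 and ANAC017, although called higher, thus stood lower within this set in sos2-2 than in wild type. NAC050, next to NAC052 in locus number, was chosen after its values were seen; it had 70.6, 68.1 and 61.8 TPM in sos2-2 and 16.7, 19.9 and 18.6 TPM in wild type (log2 difference 1.81, SE 0.12, limma adjusted p = 2.3e-05).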
